A study of Mus musculus with 2 samples.

Results

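Lef1 peaks were examined at 8 genes that govern how naive T cells enter and leave lymph nodes and home to tissues: Ccr7, S1pr1, Klf2, Ccr9, Cxcr4, Itgb7, S1pr4 and Cd44. A peak of the deposited wild-type list was taken when its centre lay inside the body of one of these genes or within 50 kb of it. The rule found 7 of the 2052 listed peaks, at 5 of the 8 genes. Lef1, a transcription factor of the TCF/LEF family, had been immunoprecipitated with antibody C18A7 (chromatin immunoprecipitation followed by sequencing, ChIP-seq). The wild-type library came from conventional CD4+ T cells, sorted from the spleens of C57BL/6 mice 8 to 10 weeks old as cells positive for TCRb and CD4 and negative for CD25. The control library came from Lef1-deficient CD4+ T cells of C57BL/6 background, sorted as TCRb+ CD4+ from CD4-Cre+ Lef1 fl/fl mice. In these mice the Cre recombinase is driven by CD4 regulatory sequence, so the deletion is not limited to mature CD4+ T cells. The age of those mice is not given in the sources used here. Both libraries are labelled as naive CD4 T cells, but the sorting markers they list do not include CD44, which helps to tell naive cells from memory cells. There was 1 library of each kind, and the control served only as the background of the peak calls. No result below has a replicate, and none was tested between samples.

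Circulating naive T cells enter lymph nodes from the blood by selectin-mediated rolling, by sensing the chemokines CCL19 and CCL21 through CCR7, with CXCR4 as a further chemokine receptor, and by integrin-mediated arrest. They leave along a gradient of the lipid sphingosine 1-phosphate (S1P), which they sense through S1P receptor 1. The transcription factor KLF2 promotes expression of S1pr1, and TCF/LEF proteins, which bind the core motif CTTTGA, are factors of naive and developing T cells. CD44, a receptor for hyaluronan, is low on naive and high on activated and memory T cells, while CCR9 and integrin α4β7 direct lymphocytes to the gut.

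Of the 8 genes, Ccr7 and Cxcr4 had 2 peaks each, S1pr1, Klf2 and Cd44 had 1 each, and Ccr9, Itgb7 and S1pr4 had none. Under the same rule 15.5% of the 21887 protein-coding genes had at least 1 peak and 2.6% had 2 or more. The 5 genes make up 62.5% of 8 (95% exact Clopper-Pearson interval 24.5 to 91.5%, counting error only). The genes were proposed with earlier results of these data known, so the gap between 62.5 and 15.5% is a description of this choice of genes. Each peak carries a score, its −log10 p-value as the authors deposited it. The 7 scores ran from 4.25 to 6.91 with a median of 4.99, against a median of 4.40 over all listed peaks. Of the 7 peaks 5 were above 4.40, at 4 of the 8 genes, while 5.83% of all protein-coding genes had a peak above it. The score of 4.40 was also the most common one, held by 828 of the 2052 peaks. Of all listed peaks, 71.9% scored lower than 4.83, the lowest of these 5. None of the 7 peaks reached the upper scores of the list, which ends at 38.17. A score ranks a site within this list and does not measure how reproducible the site is.

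**Figure D1:**
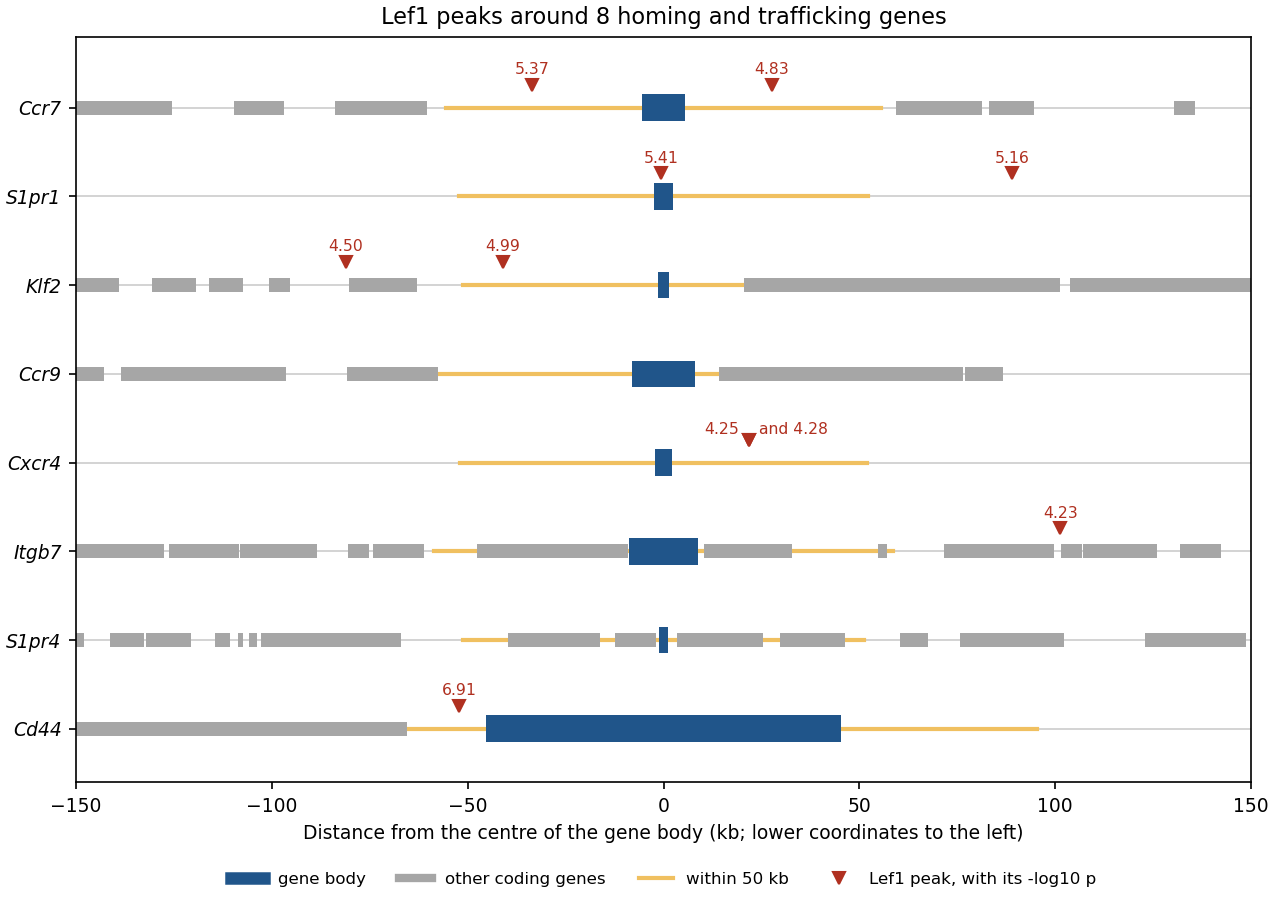
Peaks around each of the 8 genes, drawn to scale as distance in kb from the centre of the gene body, with lower coordinates to the left. Blue bars are the gene bodies, grey bars other protein-coding genes, yellow lines the reach of 50 kb, and red triangles the peaks with their −log10 p. Only the peak of S1pr1 (5.41) lies within a blue bar, and no triangle lies on the yellow lines of Ccr9, Itgb7 and S1pr4.

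Among the chemokine receptors that act in lymph node entry, Ccr7 (chromosome 11, 99144199 to 99155077, mm10) was flanked by a peak on either side. The higher-scoring one (5.37) lay at 99115895 to 99116196, 28.2 kb from the gene on its low-coordinate side. At 302 bp it was the widest of the 7 and wider than 96.0% of all peaks. The other (4.83), of 67 bp, lay at 99177236 to 99177302, 22.2 kb beyond the high-coordinate end. So the gene sat between a broad and a narrow site, with no peak in its own body. No other protein-coding gene reached into the 50 kb on either side of Ccr7. The broad site was nonetheless slightly nearer to Tns4, which encodes a tensin, at 26.7 kb, whereas the narrow one had Ccr7 as its nearest coding gene and Smarce1, a chromatin remodelling subunit gene, next at 31.8 kb. The narrow site also lay 1.54 kb from the long noncoding RNA gene Gm32249 (99168312 to 99175730).

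Cxcr4 (chromosome 1, 128588199 to 128592299), which encodes the receptor for CXCL12, had peaks of 101 bp (4.25; 128611939 to 128612039) and 63 bp (4.28; 128612109 to 128612171). They were 0.07 kb apart, had consecutive numbers among the authors' calls, and can be parts of a single site. Counted that way, the 7 peaks stood for 6 places. The site lay 19.7 kb upstream of the start of Cxcr4, by the gene's minus strand. Its nearest protein-coding gene was Cxcr4, and the next, Dars, was 195 kb away. These were the lowest scores of the 7. Both were under the median of the list, and 1571 and 1551 peaks scored higher.

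Ccr9 (chromosome 9, 123767211 to 123783457), the receptor for the gut chemokine CCL25, had no peak in its window. Its nearest lay 318 kb away (4.40; 124100996 to 124101066). That peak was 0.887 kb from Ccr2, the receptor for CCL2. The window of Ccr9 included Cxcr6, a further chemokine receptor gene, again without a peak inside or within 50 kb of it.

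Of the exit genes, S1pr1 (chromosome 3, 115710433 to 115715055) held the only peak that fell inside the body of one of the 8 genes. Among all protein-coding genes 4.31% had a peak centre inside. Of all listed peaks 50.4% lay inside a protein-coding gene, against 1 of these 7. The 7 were taken from windows reaching 50 kb past each body, so these shares of peaks are not alike. The peak of S1pr1 (5.41; 115712084 to 115712151) was 68 bp wide. It was centred 1.68 kb from the low-coordinate end and 2.94 kb from the high-coordinate end of a gene of 4.62 kb. Its score was above that of 81.1% of the listed peaks. The gene stood alone, and the next coding gene, Dph5, was 176 kb from the peak. A further peak (5.16; 115801673 to 115801751) lay 86.7 kb from S1pr1, outside the reach of the rule. No coding gene lay within 50 kb of that further peak.

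Klf2 (chromosome 8, 72319062 to 72321654) had its peak 39.7 kb upstream on the plus strand, the farthest of the 7 from its gene. The peak (4.99; 72279261 to 72279488) was 228 bp wide, wider than 91.9% of the list, and its score was one that 75 listed peaks shared. Ap1m1, which encodes an adaptor subunit of vesicle transport, was nearer at 22.0 kb, and the long noncoding RNA gene Gm51537 (72279685 to 72281948) lay just beside it, 0.31 kb from the peak's centre. A peak of 4.50 at 72239125 to 72239199 lay 79.9 kb from Klf2 and just past Ap1m1. The outermost site inside the 50 kb limit was thus at 39.7 kb, and the nearest outside it at 79.9 kb, so no peak was close to the limit.

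S1pr4 (chromosome 10, 81497745 to 81500137), another S1P receptor of lymphocytes, had no peak, the nearest being 177 kb away (4.14; 81320986 to 81321147). Its window held 4 other protein-coding genes, Celf5, Ncln and the G protein α subunit genes Gna15 and Gna11.

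For tissue homing and adhesion, Cd44 (chromosome 2, 102811141 to 102901669) had the highest score of the 7. The peak (6.91; 102804163 to 102804290) was 128 bp wide, and 168 of the 2052 peaks scored higher. It lay 6.91 kb downstream of the gene, whose strand is minus, and 97.4 kb from the start site in the promoter table. The next coding gene was Slc1a2, a glutamate transporter gene, at 13.4 kb. The nearest other listed peak was 520 kb from this site. Itgb7 (chromosome 15, 102215994 to 102233405), which encodes the integrin β7 chain, had no peak within 50 kb. The nearest (4.23; 102326037 to 102326097) was 92.7 kb away and 0.049 kb from Pfdn5, a prefoldin subunit gene.

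**Figure D2:**
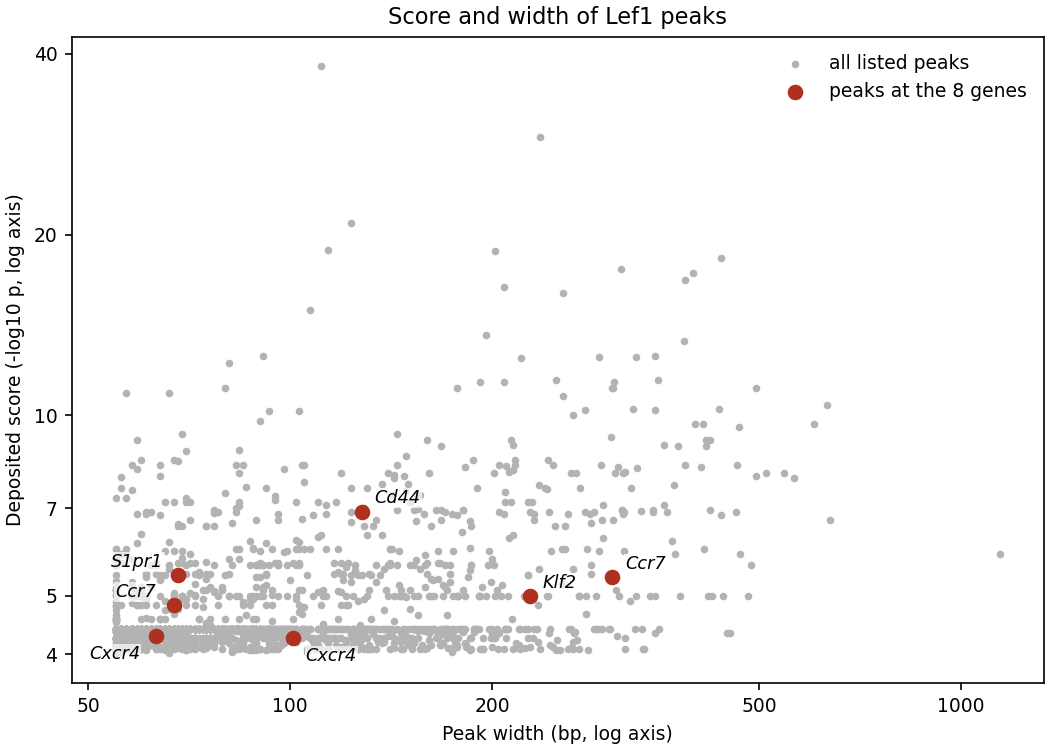
Score (−log10 p, log axis) against width (bp, log axis) of all 2052 listed peaks in grey and of the 7 peaks at the homing genes in red. The red points lie between 4.25 and 6.91 and between 63 and 302 bp, inside the lower part of the grey cloud.

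The assignment of these peaks to the genes rested on distance alone. Of the 7 peaks, 5 had the homing gene as their nearest protein-coding gene, and these belonged to Ccr7, S1pr1, Cxcr4 and Cd44. Of all protein-coding genes, with or without a peak, 6.67% were the nearest gene of a peak within 50 kb. Of the 5 homing genes with a peak, 4 were nearest to at least 1 of theirs. Among all protein-coding genes with a peak within 50 kb that share was 43.2%. Klf2 kept no peak by that criterion, and Ccr7 kept the one of 4.83. The distance from gene body to nearest peak had a median of 30.9 kb over the 8 genes and 317 kb over all protein-coding genes. As near a peak as S1pr1 had 4.31% of all genes, as near as Cd44 6.63%, as Cxcr4 9.43%, as Ccr7 9.97% and as Klf2 13.4%. For the genes without a peak these shares were 23.2% for Itgb7, 35.4% for S1pr4 and 50% for Ccr9. A gene with a peak within 50 kb lies among the nearest 15.5% by the rule itself, so the place of the 5 genes there is no further observation.

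**Figure D3:**
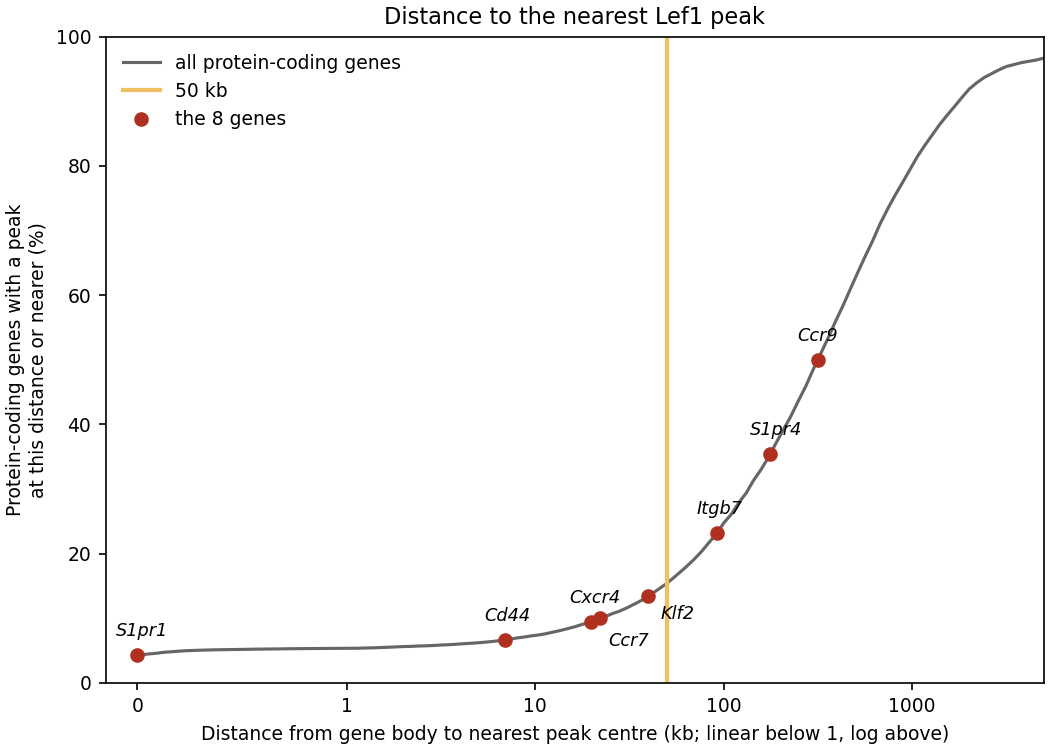
Percent of all protein-coding genes that have a peak at a given distance (kb, linear below 1 and log above) or nearer, as a grey curve, with the 8 homing genes placed on it in red. The yellow line is 50 kb. S1pr1, Cd44, Cxcr4, Ccr7 and Klf2 lie to its left between 4.31 and 13.4%, and Ccr9 lies at 50%.

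The genes with a peak lay in sparser surroundings than those without. Ccr7, S1pr1 and Cxcr4 had 0 other protein-coding genes within 50 kb, Klf2 had 1 (Eps15l1) and Cd44 had 1 (Slc1a2). Ccr9 had 3, and Itgb7 and S1pr4 had 4 each, against a median of 3 over all protein-coding genes. The part of gene spacing in the counts was not tested.

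A gene without a listed peak is one with no call that the deposited list kept. The listed peaks make up 6.06% of the authors' call numbers, which rise with position on every chromosome. Taking each missing number as a call that was left out, 24 such calls fell in the 1150 kb between the listed peaks that flank Ccr9. Another 26 fell in 1480 kb around Itgb7 and 17 in 857 kb around S1pr4. These make 20.9, 17.6 and 19.8 per Mb, against 12.0 per Mb between listed peaks over all chromosomes. Between the listed peaks next outside the windows of the other 5 genes the values were 22.9 per Mb for Ccr7, 14.5 for Cd44, 8.93 for Cxcr4, and 8.83 for both Klf2 and S1pr1. So the genes without a peak lay within the range of those with one. The positions and scores of the missing calls are unknown, so weaker enrichment at Ccr9, Itgb7 and S1pr4 was not assessed. The read depth of both libraries is unknown.

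Start sites were compared with the peaks through RefSeq promoter sequences of GRCm38.p6 (mm10), each from 250 bases before to 50 bases after a start. Entries were matched for 6 of the 8 genes, all but Ccr7 and S1pr1. None of these 6 windows was overlapped by a peak, against 0.95% of all 32851 promoter windows. The windows of the members with both a peak and an entry are shown, since they are where a peak at the start site would have lain. They run 5′ to 3′ on the strand of the gene, and capitals mark the SP-type motif GGGCGG on either strand. The windows are chr8:72318812-72319111 on the plus strand for Klf2, chr1:128592250-128592549 on the minus strand for Cxcr4 and chr2:102901616-102901915 on the minus strand for Cd44.
Klf2: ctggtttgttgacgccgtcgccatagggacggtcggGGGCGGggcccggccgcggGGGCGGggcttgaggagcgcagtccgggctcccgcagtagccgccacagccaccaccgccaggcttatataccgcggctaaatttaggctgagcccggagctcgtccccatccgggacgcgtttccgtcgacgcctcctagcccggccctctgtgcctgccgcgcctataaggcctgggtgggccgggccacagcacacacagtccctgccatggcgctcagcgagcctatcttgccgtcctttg
Cxcr4: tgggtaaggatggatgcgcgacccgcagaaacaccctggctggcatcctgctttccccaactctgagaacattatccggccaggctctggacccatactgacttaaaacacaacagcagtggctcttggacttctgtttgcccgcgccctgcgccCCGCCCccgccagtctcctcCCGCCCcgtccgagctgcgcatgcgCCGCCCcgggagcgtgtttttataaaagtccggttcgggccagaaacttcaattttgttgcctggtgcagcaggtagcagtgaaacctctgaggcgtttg
Cd44: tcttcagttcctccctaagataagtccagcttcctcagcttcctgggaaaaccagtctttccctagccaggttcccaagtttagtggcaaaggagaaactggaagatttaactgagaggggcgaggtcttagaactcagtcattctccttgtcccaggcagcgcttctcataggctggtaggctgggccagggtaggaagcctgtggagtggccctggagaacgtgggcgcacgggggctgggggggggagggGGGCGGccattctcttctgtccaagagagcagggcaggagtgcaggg

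None of the 6 promoter windows held the TCF/LEF core CTTTGA on either strand, which 16.0% of all windows held. The search covered 6 motifs in all, each on both strands, with matches allowed to overlap. GGGCGG was in 3 of the 6, the windows shown, and in 35.7% of all. The KLF-type motif CACACCC was in 1 (Itgb7) and in 7.95% of all, and the ETS-type motif ACTTCC in 1 (Itgb7 again) and in 23.8% of all. The RUNX-type motif TGTGGT (16.8% of all windows) and the FOXO-type motif GTAAACA (3.65%) were in 0 of the 6. These windows say nothing of the letters under the 7 peaks, whose sequence was not used here.

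Beside the 8 genes, 9 lists of trafficking genes by role, 137 genes with the 8 included, were read by the same rule. Of the 129 other genes 34 had a peak, or 26.4% (95% exact interval 19.0 to 34.8%), against 15.5% of all protein-coding genes. Of the 34, 17 (50%) were the nearest gene of at least 1 of their peaks, against 43.2% of all protein-coding genes with a peak within 50 kb. A peak lay inside the body of 11 (32.4%), against 27.9%. The median score of the peaks at the 129 genes was 4.40, that of the whole list. Since 828 of the 2052 listed peaks held this same score, the equal medians say little about how these peaks rank. The lists were chosen with earlier results of these data known, so their shares describe this choice of genes.

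In the S1P axis 3 of 13 genes had a peak (23.1%, 95% exact interval 5.04 to 53.8%, which includes 15.5%). They were S1pr1, Klf2 and Sphk2, a kinase that makes S1P. The peak at Sphk2 (4.99; chromosome 7, 45715354 to 45715440) was the single one in all lists that overlapped a promoter window of its own gene, where the gene had an entry. It covered the bases 147 to 233 upstream of a start of Sphk2, so all of its 87 bp lay in the window chr7:45715158-45715457 on the minus strand. The window is shown for that reason, with matches to the SP-type motif and to the KLF-type motif CACACCC in capitals.
Sphk2: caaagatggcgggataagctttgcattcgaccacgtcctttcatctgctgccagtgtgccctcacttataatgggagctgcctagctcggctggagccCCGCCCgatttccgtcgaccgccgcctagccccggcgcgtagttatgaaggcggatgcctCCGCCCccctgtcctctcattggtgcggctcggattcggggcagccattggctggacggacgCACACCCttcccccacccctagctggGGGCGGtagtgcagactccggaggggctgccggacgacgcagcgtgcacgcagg

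This window did not hold CTTTGA on either strand. The ribosomal protein gene Rpl18 was 0.07 kb from the peak's centre as well, so the site cannot be given to Sphk2 alone. The receptors S1pr2, S1pr3 and S1pr5, the S1P exporters Spns2 and Mfsd2b, the S1P lyase gene Sgpl1 and Cd69, whose product holds back S1P receptor 1, had no peak.

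Among selectins and the enzymes that make their ligands, 5 of 13 genes had a peak (38.5%). The 95% exact interval, 13.9 to 68.4%, includes 15.5%. The peaks of these genes lay at 3 sites. Those of Fut7 (4.31) and Gcnt1 (4.40), both glycosyltransferase genes, had nearer genes, Paxx and Rfk.

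Chemokine receptors had a peak at 6 of 20 genes (30.0%, 95% exact interval 11.9 to 54.3%, which includes 15.5%). Besides Ccr7, Cxcr4 and Ccr2 these included Ccr4 and Cxcr2. The peak within 46.7 kb of Ccr4, the receptor for CCL17 and CCL22, scored 11.45 but lay inside Glb1, a galactosidase gene, and that of Cxcr2 (4.40) was nearer to Cxcr1. Cxcr3, Cxcr5 and Ccr6, receptors of effector and follicular T cells, had none. Chemokine ligands had a peak at 4 of 13 genes (30.8%, 95% exact interval 9.09 to 61.4%, which also includes 15.5%). Of these only Cxcl12, the ligand of CXCR4, was the nearest coding gene (4.40, at 23.3 kb). Ccl28 had 4 peaks, each nearer to another gene, and the highest (12.22) lay inside Tmem267. The peaks near Ccl22 and Cxcl16 were nearer to Pllp and Arrb2. Ccl19 and Ccl21a, the ligands of CCR7, and Ccl25, that of CCR9, had none.

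Integrins and their ligands had a peak at 1 of 17 genes (5.88%, 95% exact interval 0.149 to 28.7%), an interval that includes the 15.5% of all protein-coding genes. It was Itgb3 (4.99; chromosome 11, 104661177 to 104661402), with a peak inside its body. The leukocyte integrin genes Itgal, Itgb2, Itga4 and Itgae had none, like Itgb7, nor did Icam1, Vcam1 and Madcam1. In the list of Cd44, hyaluronan synthases and membrane linkers Cd44 was the 1 gene of 11 with a peak. That was 9.09% (95% exact interval 0.23 to 41.3%). Has1, Has2 and Has3, Ezr, Rdx and Msn had none. Other guidance receptors had a peak at 1 of 8 genes (12.5%, 95% exact interval 0.316 to 52.7%). It was C5ar1 (4.40), at which Ccdc9 was nearer, and Gpr183 and Gpr15 had none.

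The regulators of homing genes had a peak at 7 of 11 genes, Klf2 included (63.6%, 95% exact interval 30.8 to 89.1%, above 15.5%). Tcf7, Lef1 and Satb1, with 4, 3 and 4 peaks, were put on this list with their peaks already known. Lef1 itself is the gene deleted in the control, and the part of the deletion in its peaks was not tested. Klf7 had a peak in its body (4.20) and Bach2 had 1 (4.04). Klf13 had 2, the closest at 35.6 kb with the highest score of 5.99. Foxo1, which promotes expression of Klf2, had no peak, nor had Foxo3, Klf3 and Klf4. Motility and adhesion signalling had a peak at 12 of 32 genes (37.5%, 95% exact interval 21.1 to 56.3%, above 15.5%). That list too was chosen with earlier results of these data known. Of its genes Apbb1ip, which encodes the adaptor RIAM that links RAP1 to talin, had the highest score (7.90, at 11.1 kb). Rap1a itself, a small GTPase of integrin activation, had 4 peaks inside the 50 kb reach with a highest of 5.63, of which 2 had Rap1a as their nearest gene. Fyb, an adaptor gene of the same route, had 4 peaks of at most 4.40, 3 of them nearest to it. Arrb2, an arrestin gene, had 5.41 inside its body, and Stk4 (4.08), a kinase gene of the RAP1 route, had its peak inside too. Rhoh, a small GTPase gene, had a peak at 8.04 kb (4.14). The other 6 of the 12, Rac2, Rasgrp2, Fermt3, Grk6, Rgs10 and Myo1g, had theirs 18.0 to 49.6 kb away, with another gene nearer in each case. Dock2, Coro1a, Tln1 and Rassf5 had none.

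**Figure D4:**
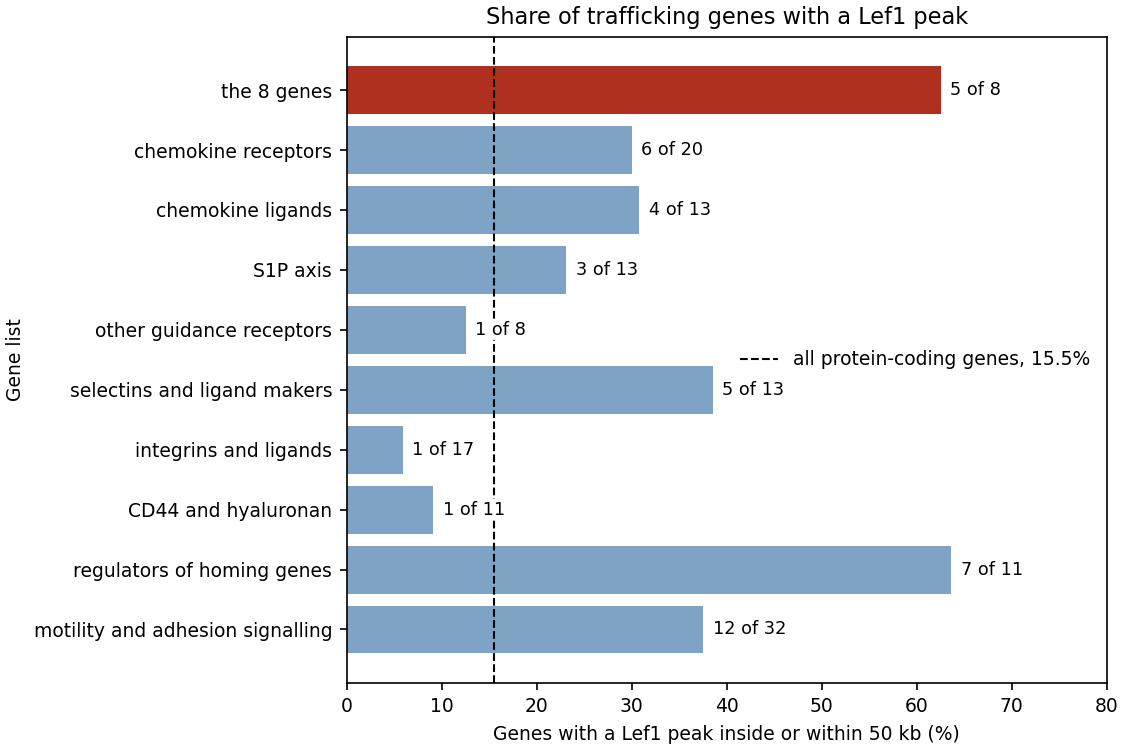
Percent of genes with a peak inside or within 50 kb, as bars from 0, for the 8 homing genes (red) and 9 lists by role (blue), with the count beside each bar. The dashed line is the 15.5% of all protein-coding genes. The bars run from 1 of 17 for integrins to 7 of 11 for regulators, and genes can be in more than 1 list.

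Of markers of the labelled cells, 3 of 8 T cell genes had a peak within 50 kb (Cd247, Cd28 and Tcf7), against 15.5% of all protein-coding genes. Each of the 3 was the nearest coding gene of a peak, as were 43.2% of all protein-coding genes with a peak within 50 kb. Cd3e, Cd3d, Cd3g, Cd4 and Cd5 had no peak. The peaks of Tcf7 were already known when the list was made. The myeloid, CD8 T cell and NK cell markers had 0 of 5, 0 of 4 and 0 of 3. The B cell markers had 1 of 5, and that gene was not the nearest of its peak. With so few genes, these counts, the 3 of 8 included, do not stand apart from 15.5%, and none was tested. Peaks of a DNA-binding protein give no expression levels, so the share of other cells in the sort was not assessed.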

How the data were processed

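Genomic DNA bound by Lef1 was sequenced from 1 wild-type and 1 Lef1-deficient library. Libraries were amplified by 18 to 21 cycles of PCR, per the labels. Quality control with FastQC, alignment software Bowtie2 (2.3.4.1), peak caller MACS2 (2.1.1) and the build mm10 are named in the submitters' processing notes. Their parameters, and the filter behind the deposited list, are not given in the sources here. The authors deposited 1 list of 2052 peaks, each with a −log10 p-value per the file headers (4.01 to 38.17), called on the wild-type library against the control. Without replicates or read counts, precision between samples could not be estimated.

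Starts were raised by 1 to 1-based positions, on the assumption of the BED convention. Distances ran from a peak's centre to gene bodies of 21887 protein-coding genes of an NCBI RefSeq table of GRCm38.p6 (Python 3.11.15, pandas 2.3.3). A peak counted for every gene inside or within 50 kb. Strand came from the promoter table. The placement of peaks and the motif search were checked on simulated data. Named genes are the 8 members with every peak, each gene nearer to such a peak, and, of the lists by role, genes with a peak. Genes named as having none were picked after their values were seen, as were the promoter windows shown. The planned motif search under the peaks was not run, and some genes of the lists are not reported here by name. The members and lists were chosen with earlier results of these data known.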

Additional observations from a re-analysis of the deposited data

How the results depend on the processing

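The count of homing genes with a peak depended on the distance allowed. It was 2 genes with 2 peaks within 10 kb (S1pr1 and Cd44, median score 6.16; 7.32% of all protein-coding genes) and 1 gene with 1 peak within 5 kb (S1pr1, 5.41; 6.2% of all). Within 100 kb it was 6 genes with 10 peaks (median 4.91; 24.6% of all), Itgb7 being the one added. With peaks scoring at least 5 it was 3 genes with 3 peaks (Ccr7, S1pr1 and Cd44, median 5.41; 4.41% of all). Peaks above the median score left 4 genes, all but Cxcr4 (median 5.37; 5.83% of all), and assignment to the nearest gene left 4, all but Klf2 (median 4.83; 6.67% of all). Merging peaks within 1 kb kept the 5 genes with 6 peaks (median 5.18), and distance from the peak's edge kept the 5 genes and 7 peaks. Of the 137 listed genes, 39 had a peak, against 16 within 10 kb, 14 within 5 kb, 52 within 100 kb, 21 by nearest gene, 21 above the median score and 15 at a score of at least 5. The cause was not tested. The TCF/LEF core followed by T or by A, or the core with CTTTGT allowed beside it, was in 0 of the 6 promoter windows as well, against 3.73%, 5.14% and 31.2% of all windows. No paired analysis was possible because the analysis rests on 1 peak list, made from 1 library against 1 control, and no replicate could be left out. Depth is unknown, which limits what the lack of a peak can show.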
